A study of Homo sapiens with 4 samples.

Results

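The genes described here are the inhibitors and the D-type cyclin partners of the cyclin-dependent kinases (CDKs) that drive cells out of G1 phase. They were chosen by name, and comprise the CIP/KIP inhibitors CDKN1A, CDKN1B and CDKN1C, the INK4 inhibitors CDKN2A, CDKN2B, CDKN2C and CDKN2D, and the D cyclins CCND1, CCND2 and CCND3. All 10 are among the 23228 genes counted, and 8 passed the filter on low counts together with 13546 genes in all. In ES2 cells treated with Liq, CDKN1A fell to a fold of 0.474 of its vehicle level. CDKN2B rose to a fold of 1.21 and CCND3 fell to a fold of 0.828, and the other 5 tested genes did not pass the test. CDKN1C and CCND2 were at or near 0 reads in every sample.

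D cyclins bind CDK4 and CDK6, and the resulting kinases phosphorylate the retinoblastoma protein RB1, which otherwise holds E2F transcription factors in check. INK4 proteins bind CDK4 and CDK6 directly and keep the D cyclins off them. CIP/KIP proteins bind cyclin-CDK complexes, inhibiting CDK2 with cyclin E or A while also helping cyclin D-CDK4 complexes to assemble. Because D cyclins are short-lived and several of the inhibitors are regulated by degradation, mRNA levels describe only part of the control of this switch, and protein was not measured in the data used here.

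ES2 is an established human ovarian cancer line. The vehicle group (2 samples) received carrier alone, and the Liq group (2 samples) received 100 μM liquiritigenin, a plant flavanone used as an agonist of estrogen receptor beta, for 24 h in both cases. Both groups were kept in phenol red-free RPMI-1640 with dextran-charcoal stripped serum, so steroid hormones and the weakly estrogenic dye were depleted in controls and treated cells alike. All samples are a single cell line, and nothing in the labels states that the replicates were separate cultures, so p-values measure the spread between these samples, which may be technical.

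The 4 libraries held between 34573053 and 48933893 reads on genes. Of 10 epithelial and ovarian markers, the keratins KRT7, KRT8 and KRT18 were at 10 CPM (reads of a gene scaled to the size of its library) or more in every sample, CDH1 was at 0 in all 4 samples, and 5 of the 10 (CDH1, EPCAM, KRT19 and MUC16 among them) stayed under 1 CPM. The summed level of this list was 458.7 to 499.3 CPM with vehicle and 531.4 to 576.9 CPM with Liq, and its members went both ways. Of the 5 tested, KRT7 rose by 0.51 on the log2 scale (adjusted p = 1.08e-05 in edgeR), while KRT18 fell by 0.24 (adjusted p = 0.0132), PAX8 by 1.34 (adjusted p = 0.00214) and WT1 by 0.68 (adjusted p = 0.00285), the latter pair from low levels. All 4 mesenchymal markers (VIM, FN1, CDH2, ZEB1) were at 10 CPM or more, with sums of 15140 to 15740 CPM with vehicle and 13010 to 13750 CPM with Liq. These sums are mostly VIM and FN1, which fell by 0.28 (adjusted p = 0.000341 in edgeR) and 0.15 (adjusted p = 0.0237), whereas CDH2 rose by 0.22 (adjusted p = 0.0265) and ZEB1 had a log2 fold change of 0.01 (adjusted p = 0.933). Of 6 leukocyte markers, CD3E was at 0, PTPRC had 1 read in 1 Liq sample, and CD68 alone was at 10 CPM or more. Of 4 endothelial markers only CDH5 was. The receptor that Liq is used to activate, ESR2, had 4 and 7 reads with vehicle and 5 and 14 with Liq, too few to be tested. The other estrogen receptor, ESR1, had 17 to 22 reads with vehicle and 19 to 34 with Liq (log2 fold change 0.31, adjusted p = 0.554 in edgeR). The part of the marker differences in the results below was not tested.

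The bases upstream of a RefSeq start are shown for the 2 inhibitors that changed in opposite directions. A single start was used for each gene, and other annotated starts were not searched. CDKN2A, which has more than a single first exon, was thus scored from only a single start. The CDKN1A window lies inside the span of its gene model, which starts at chr6:36644237. Each sequence is the 250 bases before the RefSeq start, read 5′ to 3′ on the gene's strand and located in GRCh37 by an exact match. Capitals mark GC boxes, the letters GGGCGG on either strand, which are binding letters of SP1-type factors. The CDKN1A stretch is chr6:36646241-36646490 (plus strand), whose upstream end overlaps an exon of the opposite-strand transcript DINOL. The CDKN2B stretch is chr9:22009305-22009554 (minus strand), which lies in an intron of CDKN2B-AS1 on the other strand.
CDKN1A: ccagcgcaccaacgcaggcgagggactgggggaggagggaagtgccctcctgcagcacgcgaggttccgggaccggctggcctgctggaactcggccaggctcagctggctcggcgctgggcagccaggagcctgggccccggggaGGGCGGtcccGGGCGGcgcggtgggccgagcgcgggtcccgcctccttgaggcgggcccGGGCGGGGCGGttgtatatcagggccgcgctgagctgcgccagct
CDKN2B: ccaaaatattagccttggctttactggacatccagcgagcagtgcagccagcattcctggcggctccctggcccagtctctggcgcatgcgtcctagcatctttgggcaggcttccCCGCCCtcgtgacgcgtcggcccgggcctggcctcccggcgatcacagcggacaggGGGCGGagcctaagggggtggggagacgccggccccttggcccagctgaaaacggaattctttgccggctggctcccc
The CDKN1A stretch held 4 GC boxes, the last pair of which overlap, and 7.823% of 27305 RefSeq promoter windows of this length held at least as many. The CDKN2B stretch held 2, and 24.36% of windows held at least as many. CCND3 held 5 (at least as many in 4.204% of windows), CDKN2D held 2, CDKN1B held 1, and CDKN2A and CDKN2C held 0. A window was available for 7 of the 10 genes, and 5 of these 7 held a GC box against 42.31% of all windows. The G and C content of the 7 windows ran from 45.6% (CDKN2C) to 76.4% (CDKN1A), and the comparison with all windows was not adjusted for it.

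The same windows were searched on both strands for 7 other motifs, whose letters can overlap one another. The AP-1 letters TGACTCA, in 4.16% of all windows, were in 0 of the 7. The FOXO letters GTAAACA, in 2.977% of windows, and the cAMP response letters TGACGTCA, in 1.765%, were also in 0 of the 7. The E2F letters TTTNGCGC (1.538% of windows) and the TATA letters TATAAA (11.13%) were in none of them either. The E-box CACGTG, in 6.49% of windows, was in that of CDKN2C, and the antioxidant response core TGACNNNGC, in 11.03%, was in that of CDKN1B. A match describes letters only.

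Among the 8 tested genes, 1 was higher and 2 were lower with Liq at an adjusted p under 0.05, and 5 were not called. Over all tested genes 24.0% were called, 12.6% higher and 11.3% lower, and 3 of 8, read against that share, is no result about the set as a whole. With a fold of at least 1.5 added, 1 of the 8 was called, against 6.45% of all genes. CPM values of the groups did not overlap for 6 of the 8, against 61.7% of all genes. The median log2 fold change of the 8 was -0.02, beside 0.01 for all tested genes. Lower levels of a gene in a bulk sample can reflect fewer cells that express it or less RNA per cell, and these cannot be told apart here.

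**Figure D1:**
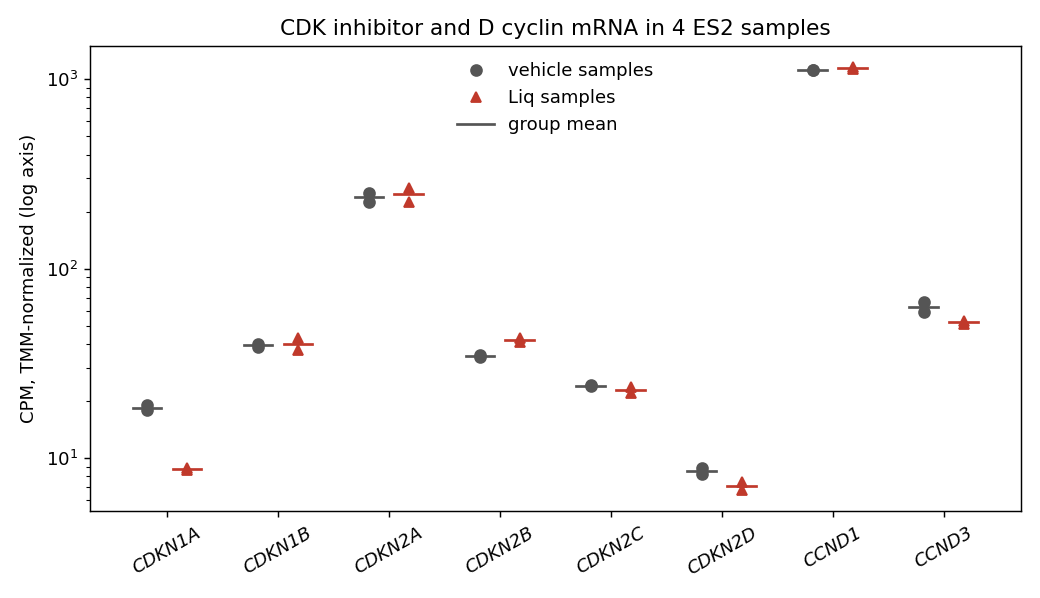
CPM (TMM-normalized) of each of the 8 tested genes on a log axis, with circles for the 2 vehicle samples, triangles for the 2 Liq samples and a line for each group mean. The Liq points lie clearly below the vehicle points for CDKN1A (8.63 and 8.87 against 17.8 and 19.1 CPM), while for CDKN1B and CDKN2A the groups overlap.

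CDKN1A encodes p21, the CIP/KIP inhibitor that many stress and differentiation signals induce. Its gene is at chr6:36644237-36655114 on the plus strand. CDKN1A was at 19.1 and 17.8 CPM with vehicle and at 8.63 and 8.87 CPM with Liq. Both Liq samples lay far below both vehicle samples, and samples of the same group were close together. The reads behind these values were 786, 668, 307 and 445, which give a counting error of 3.57% to 5.71%. Means were 18.5 ± 0.90 CPM with vehicle and 8.75 ± 0.17 CPM with Liq (SD, n = 2 each). CDKN1A fell by 1.08 ± 0.11 on the log2 scale (± is the SE for log2 values, adjusted p = 2.00e-08 in edgeR's quasi-likelihood test), a fold of 0.474 with a 95% interval of 0.408 to 0.551. The call was made under all 11 other settings, with log2 fold changes from -1.14 to -1.03.

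CDKN1B encodes p27, whose abundance is mostly set by its degradation. Its gene is at chr12:12838432-12875303 (plus strand). CDKN1B was at 38.6 and 39.96 CPM with vehicle and at 37.2 and 43.1 CPM with Liq. The vehicle values lay between the Liq values, so the groups overlapped. The log2 fold change was 0.03 (SE 0.09, adjusted p = 0.822 in edgeR), and the 95% interval of the fold ran from 0.901 to 1.16. Without the second Liq sample the log2 fold change was -0.079, on the other side of 0. The opposite-strand gene GPR19 overlaps the span of CDKN1B but shares no exon base with it.

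CDKN1C encodes p57, an imprinted inhibitor at chr11:2904443-2907005 (minus strand). CDKN1C had 0 and 1 reads with vehicle and likewise 0 and 1 with Liq. It was not tested. In the samples with 0 reads, 3 reads, the limit that a count of 0 allows, correspond to 0.073 CPM (first vehicle sample) and 0.084 CPM (first Liq sample) on the normalized scale. Such limits cover counting error only.

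Within the CIP/KIP family the mix of transcripts differed between the groups. Per kb of merged exons, CDKN1A made up 60.4% and 57.9% of the family's reads with vehicle and 41.7% and 38.8% with Liq. CDKN1B held nearly all of the rest, so that the more abundant of the pair per kb was CDKN1A in both vehicle samples and CDKN1B in both Liq samples. The mean share was 59.2 ± 1.79% with vehicle and 40.3 ± 2.06% with Liq, a difference of -18.9 percentage points (n = 2 each, exact permutation p = 0.3333, the smallest that 2 against 2 samples allow). With the longest annotated transcript as the length, CDKN1B was above CDKN1A in the vehicle samples too, with CDKN1A shares of 48.6% and 46.0% against 30.7% and 28.2% with Liq. The order of the pair with vehicle therefore rests on the length used, and the lower share with Liq does not. The family total was 10.6 and 10.3 CPM per kb with vehicle and 6.90 and 7.62 CPM per kb with Liq (two-sided exact permutation p = 0.3333).

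Counted without length, the samples held 49.5 and 44.7 CDKN1A reads per 100 CDKN1B reads with vehicle and 23.2 and 20.6 with Liq (exact permutation p = 0.3333). This ratio is taken within each sample and needs no normalization between libraries.

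**Figure D2:**
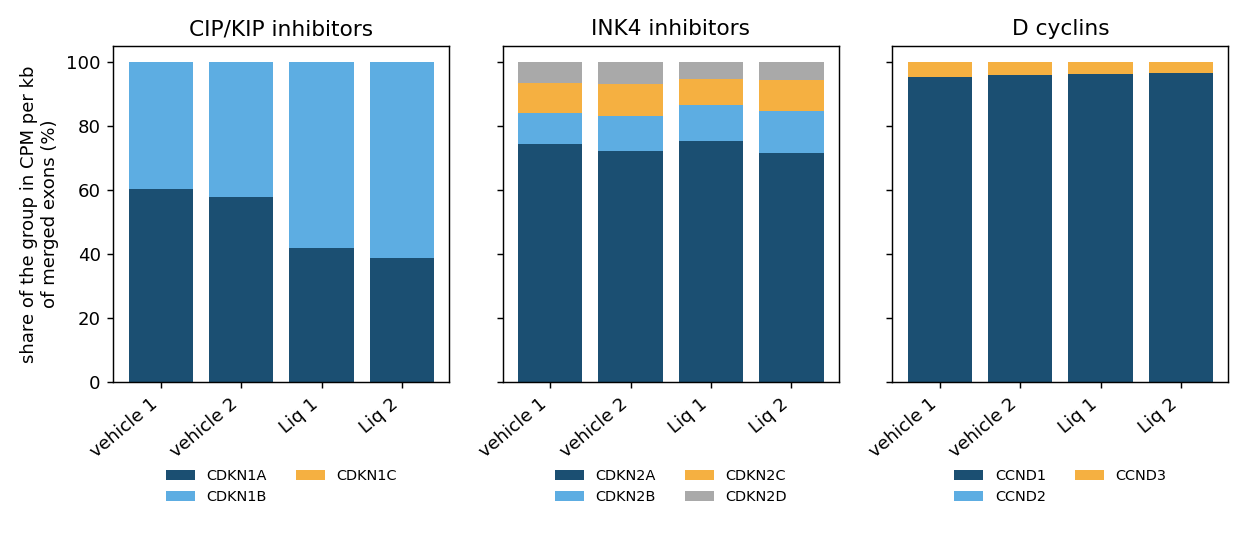
Share of each gene in the reads per kb of merged exons of its family (percent, 0 to 100), stacked per sample for the CIP/KIP inhibitors, the INK4 inhibitors and the D cyclins. CDKN1A takes 57.9% to 60.4% of the CIP/KIP bar with vehicle and 38.8% to 41.7% with Liq, whereas CDKN2A and CCND1 fill most of their bars in all 4 samples.

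CDKN2B encodes p15, the INK4 inhibitor known for its induction by TGF-beta. Its gene is at chr9:22002902-22009304 (minus strand). CDKN2B was at 34.3 and 35.02 CPM with vehicle and at 41 and 43.1 CPM with Liq. Both Liq samples were above both vehicle samples. CDKN2B rose by 0.28 ± 0.09 on the log2 scale (adjusted p = 0.0186 in edgeR), a fold of 1.21 with a 95% interval of 1.07 to 1.37. The call was lost without the first vehicle sample (log2 fold change 0.26, SE 0.136) and without the second (0.29, SE 0.136). In both fits the estimate stayed close to that reported and the SE was larger. The call was made under the other 9 settings.

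CDKN2A encodes both p16 and, from another first exon and reading frame, the unrelated protein p14ARF. Its gene is at chr9:21967751-21995300 (minus strand), and the counts pool the transcripts of both proteins. CDKN2A was at 251 and 225 CPM with vehicle and at 267 and 226 CPM with Liq. The groups overlapped, with 1 higher and 1 lower sample in each. The log2 fold change was 0.05 (SE 0.08, adjusted p = 0.716 in edgeR), with a 95% interval of the fold of 0.924 to 1.15. It turned to -0.03 without the second vehicle sample and to -0.079 without the first Liq sample. These were the most abundant INK4 transcripts in every sample.

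CDKN2C encodes p18, at chr1:51426417-51440306 (plus strand). CDKN2C was at 24.2 and 24.1 CPM with vehicle and at 22.2 and 23.8 CPM with Liq, and the groups were close together without overlapping. The log2 fold change was -0.07 (SE 0.09, adjusted p = 0.651 in edgeR). CDKN2D encodes p19, at chr19:10677136-10679735 (minus strand). CDKN2D was at 8.83 and 8.25 CPM with vehicle and at 7.48 and 6.77 CPM with Liq, again without overlap. On the log2 scale it differed by -0.27 (SE 0.12, adjusted p = 0.113 in edgeR), with a 95% interval of the fold of 0.699 to 0.989, and its reads carried the highest counting error of the 8 genes, 5.25% to 6.13%. CDKN2D passed the test in 1 of 11 other settings, offsets fitted along the expression level (log2 fold change -0.36, adjusted p = 0.0347 in edgeR).

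CDKN2A held 74.2% and 72.3% of INK4 reads per kb with vehicle and 75.2% and 71.5% with Liq. CDKN2B held 9.83% and 10.9% with vehicle and 11.2% and 13.2% with Liq, and CDKN2D held 6.73% and 6.84% with vehicle and 5.45% and 5.54% with Liq. CDKN2A thus led the family in both groups, and it held 89.9% to 91.5% when lengths were taken from the longest transcript. Family totals were 87.2 and 80.2 CPM per kb with vehicle and 91.2 and 81.3 with Liq, which overlap (two-sided exact permutation p = 0.667). Reads of CDKN2B per 100 reads of CDKN2A were 13.6 and 15.6 with vehicle and 15.4 and 19.1 with Liq, which also overlap (exact permutation p = 0.667).

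CDKN2A and CDKN2B stand next to each other on chromosome 9, with the antisense transcript CDKN2B-AS1, a long noncoding RNA known as ANRIL, running through both on the plus strand, chr9:21994138-22128102. CDKN2B-AS1 had 147 and 165 reads with vehicle and 201 and 293 with Liq, and rose by 0.53 ± 0.15 on the log2 scale (adjusted p = 0.00902 in edgeR). This call was lost without the first vehicle sample (0.38, adjusted p = 0.222), under the DESeq2 test (0.52, adjusted p = 0.0704) and with loess offsets (0.40, adjusted p = 0.0507). CDKN2B-AS1 shares 593 exon bases with CDKN2A and 0 with CDKN2B, and whether the counting used strand is not given, so in the shared bases reads of the pair cannot be told apart. On the other side of CDKN2A, MTAP, which encodes the methionine salvage enzyme often lost together with CDKN2A, had 8681 to 8874 reads with vehicle and 6422 to 9997 with Liq. Reads of both CDKN2A and MTAP were abundant in every sample. MTAP fell by 0.24 ± 0.07 on the log2 scale (adjusted p = 0.0180 in edgeR), a call that was lost under 4 of 11 other settings.

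CCND1 encodes cyclin D1 and lies at chr11:69455924-69469242 (plus strand). CCND1 was at 1122 and 1121 CPM with vehicle and at 1137 and 1157 CPM with Liq. The Liq values were both above the vehicle values, by a small margin. The log2 fold change was 0.03 (SE 0.06, adjusted p = 0.726 in edgeR), with a 95% interval of the fold of 0.942 to 1.11. CCND1 was the most abundant of the 10 genes, with 40440 to 58081 reads per sample.

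CCND3 encodes cyclin D3, at chr6:41902672-42018095 (minus strand). CCND3 was at 66.4 and 59.0 CPM with vehicle and at 52.8 and 51.2 CPM with Liq. Both Liq samples were below both vehicle samples, and the vehicle samples differed more from each other than the Liq samples did. CCND3 fell by 0.27 ± 0.08 on the log2 scale (adjusted p = 0.0176 in edgeR), a fold of 0.828 with a 95% interval of 0.736 to 0.932. Without the first vehicle sample the log2 fold change was -0.18 (SE 0.129) and the call was lost. CCND2, which encodes cyclin D2 at chr12:4378937-4414519 (plus strand), had 0 reads in all 4 samples, which allows up to 0.060 to 0.084 CPM.

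CCND1 held 95.3% and 95.8% of D cyclin reads per kb with vehicle and 96.3% and 96.5% with Liq. The mean shares were 95.6 ± 0.35% and 96.4 ± 0.12% (SD, n = 2 each), a difference of 0.81 percentage points (exact permutation p = 0.3333, the smallest possible). Reads of CCND3 per 100 reads of CCND1 were 5.92 and 5.27 with vehicle and 4.64 and 4.42 with Liq, without overlap (exact permutation p = 0.3333). Reads of CDKN1A per 100 reads of CCND1 were 1.70 and 1.59 with vehicle and 0.759 and 0.766 with Liq (exact permutation p = 0.3333). With longest-transcript lengths CCND1 held 90.5% and 91.5% of D cyclin reads per kb with vehicle and 92.4% and 92.7% with Liq. The D cyclin pool was thus mostly CCND1 on both lengths, with and without Liq.

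**Figure D3:**
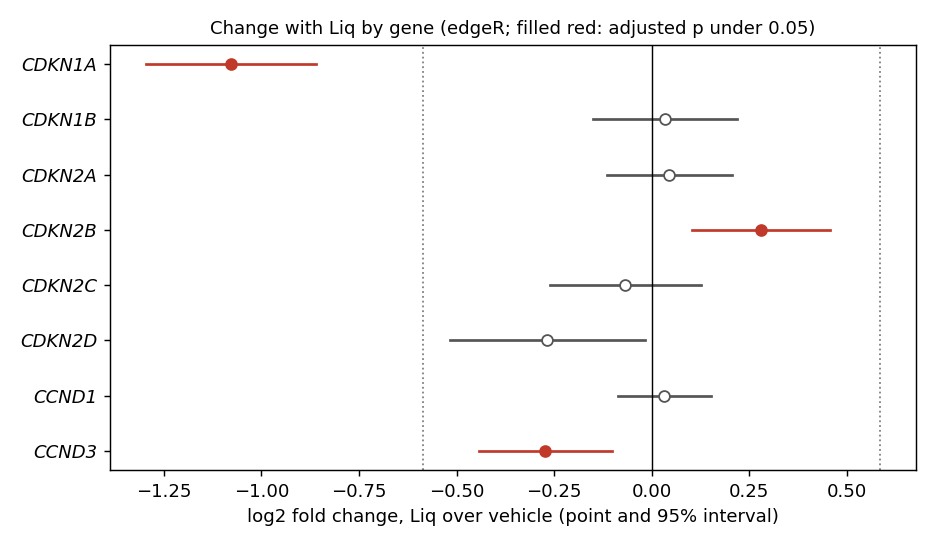
Log2 fold change (Liq over vehicle) of each tested gene from the edgeR fit, as a point with its 95% interval, a solid line at 0, dotted lines at 1.5-fold and filled red points where the adjusted p was under 0.05. The interval of CDKN1A lies far below 0, those of CCND3 and CDKN2D lie below it, that of CDKN2B lies above it, and the other 4 cross it. CDKN2D did not pass the test after adjustment.

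Ordered by level per kb of merged exons in the vehicle samples, CCND1 was first at 236 ± 0.063 CPM per kb (SD, n = 2 here and below), followed by CDKN2A at 61.3 ± 4.76. CCND3 stood at 10.9 ± 0.91, CDKN2B at 8.66 ± 0.13 and CDKN2C at 7.99 ± 0.025. CDKN1A stood at 6.17 ± 0.30, CDKN2D at 5.67 ± 0.27 and CDKN1B at 4.25 ± 0.10 CPM per kb. Neighbours in this order did not overlap between the 2 vehicle samples, the closest being CDKN1A (5.96 to 6.38) and CDKN2D (5.48 to 5.87). With Liq, CDKN2B (10.5 ± 0.37) stood above CCND3 (9.02 ± 0.20), and CDKN1A (2.92 ± 0.055) was last of the 8. CDKN2D (4.50 to 4.97) and CDKN1B (4.02 to 4.66) overlapped there. On the longest-transcript scale the vehicle means of CDKN2A and CCND1 were 226 and 265 CPM per kb, so the distance between these 2 rests on the length used. The order rests on it as well, and the lengths over which reads were counted are not known. With those lengths CCND3 stood above CDKN2B with Liq (21.7 against 10.9 CPM per kb). The vehicle mean of CDKN1B was 9.07 CPM per kb, above those of CDKN2B (8.99), CDKN2C (8.31) and CDKN1A (8.15). CDKN1A was last with Liq on both lengths (3.86 CPM per kb on the longest transcript).

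**Figure D4:**
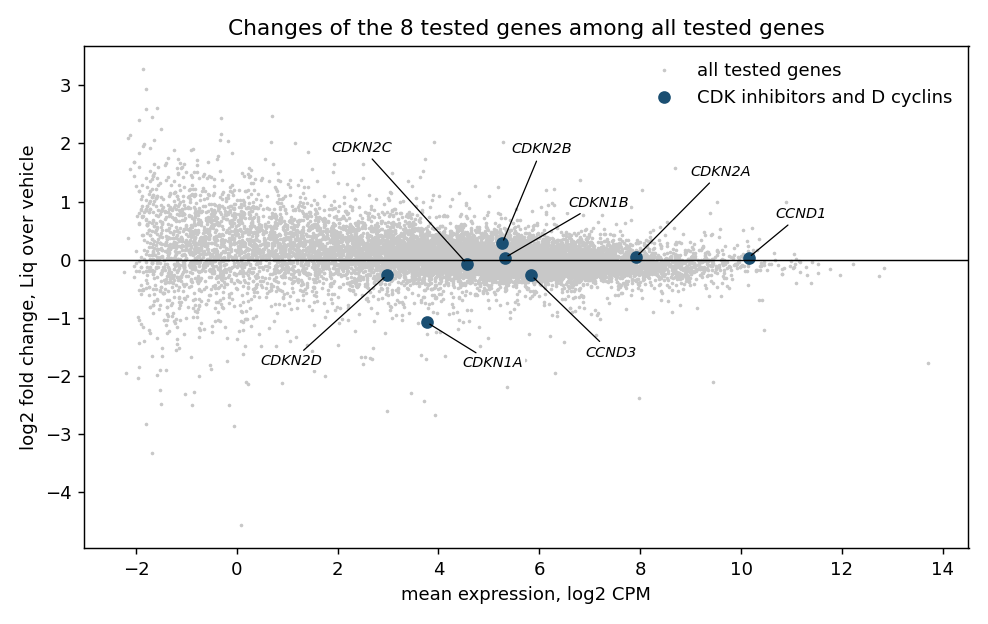
Log2 fold change (Liq over vehicle) against mean expression (log2 CPM) for all 13546 tested genes in grey, with the 8 tested CDK inhibitors and D cyclins in blue. CDKN1A lies at the lower edge of the grey cloud at its expression level, and the other 7 lie inside it.

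The genes around this switch were counted in lists, and no list was tested as a set. For each list here and below, the share to read beside it is that over all tested genes. That share was 24.0% called, 12.6% higher and 11.3% lower, with a median log2 fold change of 0.01. Over the 2709 genes of highest level the median was -0.075. Of 9 G1 kinases and E cyclins, 0 were called higher, 2 were called lower and 7 were not called (median log2 fold change -0.15). CDK4 had a log2 fold change of -0.14 (adjusted p = 0.143 in edgeR), CDK6 of -0.09 (adjusted p = 0.387) and CDK2 of 0.10 (adjusted p = 0.348). None of these 3 kinases passed the test in edgeR. CCNE2, an E cyclin that activates CDK2, fell by 0.36 on the log2 scale (adjusted p = 0.00457 in edgeR), and CCNE1 had a value of -0.19 (adjusted p = 0.202). CCNE2 was not called without the second vehicle sample, with an adjusted p of 0.120 in edgeR. MNAT1, a subunit of the CDK-activating kinase, fell by 0.24 (adjusted p = 0.0338 in edgeR), and its catalytic partner CDK7 had a value of -0.22 (adjusted p = 0.0800). The MNAT1 call was lost in 5 of 11 other settings, and CDK7 was called in 2 of 11.

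Of 13 pocket proteins and E2F factors, 0 were called higher and 3 were called lower (median log2 fold change -0.14). Among all tested genes 12.6% were called higher and 11.3% lower. E2F7, a repressor of E2F targets, fell by 0.31 on the log2 scale (adjusted p = 0.00257 in edgeR). E2F3, an activator, fell by 0.27 (adjusted p = 0.0107), and E2F5, a repressor that works with the pocket proteins, fell by 0.30 (adjusted p = 0.0271). E2F7 lost its call without the second vehicle sample, E2F3 without either vehicle sample, and E2F5 in those cases and 2 others. RB1 had a log2 fold change of -0.21 (adjusted p = 0.0765 in edgeR) and E2F1 of -0.10 (adjusted p = 0.398).

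Downstream, 2 of 24 E2F target genes were called higher, 2 were called lower and 20 were not called (median log2 fold change -0.08). The share called over all tested genes was 24.0%. RRM2, a subunit of ribonucleotide reductase, fell by 0.48 on the log2 scale (adjusted p = 8.71e-06 in edgeR), and CCNE2 was the other lower one. TK1, thymidine kinase, rose by 0.36 (adjusted p = 0.0023 in edgeR), and without the second vehicle sample the log2 fold change was 0.27 and the call was lost (adjusted p = 0.171). Of 10 proliferation markers 0 were called higher and 3 were called lower (median -0.12), beside 12.6% and 11.3% of all tested genes. CDK1, the mitotic kinase, fell by 0.43 on the log2 scale (adjusted p = 0.000232 in edgeR), under all 11 other settings too. AURKA and PLK1, mitotic kinases as well, fell by 0.20 (adjusted p = 0.0383) and 0.21 (adjusted p = 0.0421), and lost their calls in 5 and 6 of 11 other settings. MKI67 had a value of -0.13 (adjusted p = 0.160).

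Regulators known to act on transcription of these inhibitors and cyclins included 32 tested genes. Of these, 6 were called higher, 2 lower and 24 were not called (median log2 fold change -0.04), beside 24.0% of all tested genes called. ID3 and ID1, inhibitors of helix-loop-helix factors, were the 2 that passed 1.5-fold. ID3 was at 15.4 ± 2.81 CPM with vehicle and 37.2 ± 1.99 CPM with Liq (SD, n = 2 each), and rose by 1.27 ± 0.11 on the log2 scale (adjusted p = 1.33e-09 in edgeR). ID1 was at 13.2 ± 0.53 and 29.3 ± 2.08 CPM, and rose by 1.15 ± 0.10 (adjusted p = 2.02e-09 in edgeR). Both were called in all 11 other settings, as was ETS2 in the same list, which rose by 0.46 (adjusted p = 5.70e-05 in edgeR).

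MYC, also in this list, had a log2 fold change of 0.18 (adjusted p = 0.0683 in edgeR) and was called in 4 of 11 other settings. SMAD3 and FOXO3, mediators of TGF-beta and of low insulin signalling, rose by 0.30 (adjusted p = 0.00103 in edgeR) and 0.27 (adjusted p = 0.0300). KLF4, an activator of CDKN1A, fell by 0.51 (adjusted p = 0.00350 in edgeR), and MAX, the partner of MYC, fell by 0.26 (adjusted p = 0.0168). SMAD3, FOXO3, KLF4 and MAX were named after their values were seen. The FOXO3 call was lost in 4 of 11 other settings and that of MAX in 2, both without either vehicle sample.

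Of 15 tested genes that act in the turnover of p27, p21 and the D cyclins, 1 was called higher, 1 was called lower and 13 were not called (median log2 fold change 0.01). SKP2, the receptor subunit of the ligase for p27, had a value of -0.10 (adjusted p = 0.433 in edgeR). FBXW8, a ligase subunit acting on cyclin D1, rose by 0.34 (adjusted p = 0.00987 in edgeR), and GSK3B, whose kinase marks cyclin D1 for export and degradation, fell by 0.23 (adjusted p = 0.0347). Neither was called without the first or without the second vehicle sample, and GSK3B lost its call in 5 of 11 other settings in all. DDB1, of the ligase for p21, had a value of -0.17 (adjusted p = 0.0514). Of 11 other CDK-binding or CDKN-named genes, 2 were called higher and 3 lower (median -0.15). CABLES2 was at 9.31 ± 0.36 and 14.9 ± 1.88 CPM (SD, n = 2 each) and rose by 0.67 (adjusted p = 8.54e-05 in edgeR), while CCNDBP1, which encodes a cyclin D-binding protein, fell by 0.39 (adjusted p = 0.00115). SERTAD1, which encodes a CDK4-binding protein, was at 12.4 ± 1.85 CPM with vehicle and 7.34 ± 0.12 CPM with Liq, and fell by 0.76 ± 0.12 on the log2 scale (adjusted p = 4.41e-05 in edgeR). CDK2AP2 rose by 0.34 (adjusted p = 0.00873) and CDK2AP1 fell by 0.23 (adjusted p = 0.0290), both named after their values were seen. CABLES2 and SERTAD1 were called in all 11 other settings. CCNDBP1 lost its call without the first vehicle sample (adjusted p = 0.0536 in edgeR), CDK2AP2 without the second (adjusted p = 0.218), and CDK2AP1 in 5 of 11 settings.

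Of 20 neighbours of the 10 genes in the files, 13 were tested, 2 were called higher and 2 lower (median log2 fold change -0.10). GPR19, a G protein-coupled receptor gene that overlaps the start of CDKN1B on the other strand, had 131 and 120 reads with vehicle and 221 and 263 with Liq. GPR19 rose by 0.83 ± 0.15 on the log2 scale (adjusted p = 0.000205 in edgeR) under all 11 other settings as well. CREBL2, on the other side of GPR19, fell by 0.23 (adjusted p = 0.0332 in edgeR), a call lost in 5 of 11 other settings. CDKN1A was flanked by MIR3925, with 0 reads, and by CPNE5, with 15 and 15 reads with vehicle and 21 and 17 with Liq. CCND1 lay between MYEOV, with 5598 to 8030 reads per sample, and FGF19, with 0 reads in all 4.

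**Figure D5:**
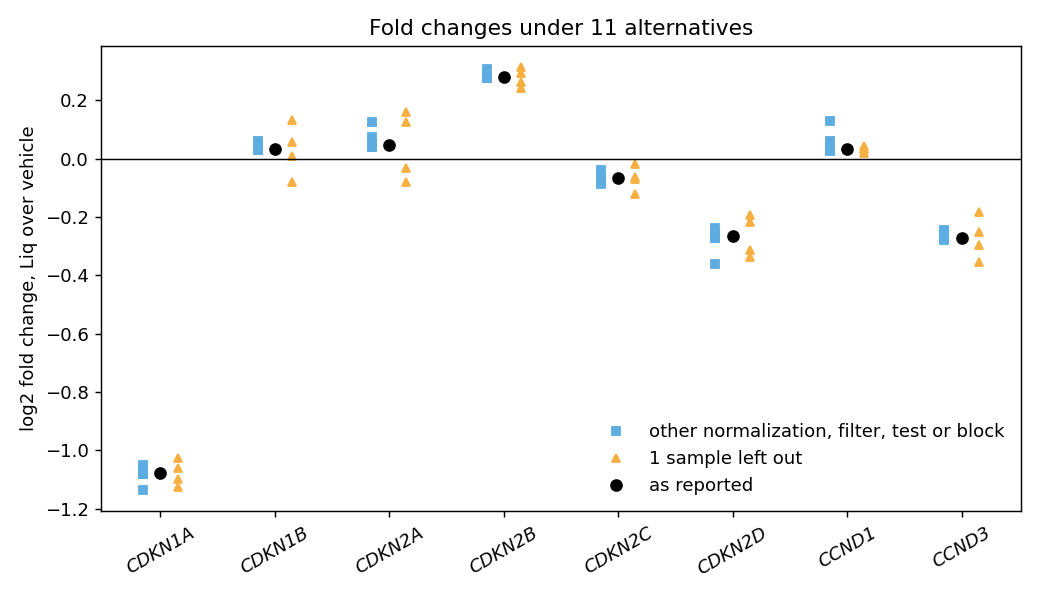
Log2 fold change (Liq over vehicle) of each of the 8 tested genes under the reported fit and the 11 other settings, with a black circle for the reported value, squares for another normalization, filter, test or block, and triangles for fits with 1 sample left out. CDKN1A stays between -1.14 and -1.03, CDKN2B stays above 0 and CCND3 below it, and CDKN1B and CDKN2A have values on both sides of 0.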

How the data were processed

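The authors sequenced TruSeq libraries of total RNA, aligned 100-base single-end reads to hg19 (GRCh37) with TopHat2 2.0.8b after bcl2fastq 2.17.1.14, and tallied reads per gene with HTSeq, whose version, annotation and strand setting are not given in the sources used here. The deposited values are whole-number counts, 1 table a sample, without multiply aligned reads (35.63% to 36.23% of tallied reads) and without reads over several genes (0.544% to 0.557%). Reads on no gene (7.75% to 9.16%) stayed out of library sizes and tests as well. At 34573053 to 48933893 counts per sample, 3 counts are 0.0613 to 0.0868 CPM before normalization.

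The labels gave the groups, and the study's methods the dose. Counts were tested in R 4.3.3 with edgeR 4.0.16 (filterByExpr, min.count 10, min.total.count 15, TMM, glmQLFit and glmQLFTest without a block, Benjamini-Hochberg over 13546 genes), replacing the DESeq test of the study. The study's 1.5-fold threshold was used as well. The SE is the size of the log2 fold change over the square root of F, and 95% intervals use a t distribution with 26 degrees of freedom. Most of these degrees of freedom are borrowed from the spread over all genes and do not come from the 4 samples. Shares within a family use CPM per kb of merged exons in GENCODE models of GRCh37, and were compared by two-sided exact permutation tests, which cannot go below p = 0.3333. As the annotation used for counting is not given, the counted length of a gene may differ from both lengths used for levels per kb. Promoter windows are from RefSeq (GRCh38.p14 table) and those printed were located in GRCh37.

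The 10 genes and the gene lists were chosen with earlier results of these data known. Named were all 10 genes, up to 3 genes with the smallest p of each list, a set of core cell cycle and receptor genes, and neighbours. No gene was named for likeness of pattern. The 11 other settings were DESeq2 1.42.0 size factors and Wald test, upper-quartile normalization, loess offsets along the expression level (limma 3.58.1, span 0.3), no filter, at least 10 counts in every sample, a replicate block, and 4 fits that each lacked 1 sample. A 2-fold threshold and unadjusted p-values were tried for the fold-based count, and longest-transcript or no lengths for shares. Fits were tested on simulated counts with 200 changed genes. A few genes of the lists and markers, and 1 list, are not reported here.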

Additional observations from a re-analysis of the deposited data

How the results depend on the processing

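Leaving out 1 sample gave 1 to 3 of the 8 genes called in place of 3, with 0 to 1 called higher and 1 to 2 called lower. The lowest counts came without the first vehicle sample, where CDKN1A alone was called. The count at 1.5-fold was 1 under every setting tried, a 2-fold threshold and unadjusted p-values included. The genes of the pathway lists called, 31 as reported, came to 13 to 42 with 1 sample left out (17 without the first vehicle sample, 13 without the second). Over all genes, 3245 calls became 1413 to 3780, with 805 to 1966 higher and 608 to 1814 lower, and the DESeq2 Wald test made 1087 higher calls in place of 1712.

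With 1 sample left out, log2 fold changes ran from -1.13 to -1.03 for CDKN1A, from -0.079 to 0.13 for CDKN1B (-0.079 without the second Liq sample), from -0.079 to 0.16 for CDKN2A (-0.03 without the second vehicle sample, -0.079 without the first Liq sample), from 0.24 to 0.31 for CDKN2B, and from -0.12 to -0.02 for CDKN2C. They ran from -0.34 to -0.19 for CDKN2D, from 0.02 to 0.04 for CCND1 and from -0.36 to -0.18 for CCND3. With loess offsets CDKN2D was at -0.36 and passed the test. A fit that leaves 1 sample in a group assumes that it varies like the other group. The CCND1 share difference was 0.56 to 1.06 percentage points with 1 sample left out and 1.58 with longest-transcript lengths. The CDKN1A share difference was -20.4 to -17.4 with 1 sample left out and -14.0 without lengths. The cause was not tested.

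With the replicate number as a block, 54 pathway list genes were called in place of 31. Over all genes, 2321 were called higher in place of 1712 and 2474 were called lower in place of 1533. No call among the 8 genes changed under the block. The block takes the replicate numbers of the sample titles, while the names of the deposited tables number the Liq samples 3 and 4, which pair with no vehicle sample. Samples of the same title number share only a number, and their deviations from the group means correlated at 0.05 across genes. For the other named genes, 436 values stayed on the same side of the threshold, 64 lost a call, 17 gained one and 0 turned direction.

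Without the first or the second vehicle sample, the log2 fold change of CDKN2B was 0.26 or 0.29, beside 0.28 as reported. Its SE was 0.136 in both fits, beside 0.086 as reported and 0.093 or 0.096 without a Liq sample. The lost CDKN2B calls thus came with a larger SE and a similar estimate. For CCND3 the estimate moved as well, to -0.18 or -0.36 from -0.27, with an SE of 0.129 or 0.127 in place of 0.083. Log2 fold changes also followed expression, with a median of 0.22 over the 2710 genes of lowest level and of -0.075 over the 2709 of highest level.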
